A study of Mus musculus with 6 samples.

Results

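The genes described here encode the proteins of the cytosolic ribosome, and their transcripts were sequenced from the AGM (aorta-gonad-mesonephros) region of mouse embryos. Members were the table rows whose gene symbol had the form Rpl or Rps followed by a number, with an optional a, x or l, or was Rplp0, Rplp1 or Rplp2, and whose mean over the 6 libraries was at least 1 RPKM, a read count scaled to gene length and library depth. Of 23446 rows with a gene symbol, 79 had such a symbol and 76 also passed the minimum. Of these 76 genes, 46 belong to the large subunit and 30 to the small subunit.

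Haematopoietic stem cells first emerge in the AGM, in the wall of the aorta, and the study asked what serotonin made there does for those cells. Tph2 encodes an enzyme that hydroxylates tryptophan, the step that limits how much serotonin is made. The libraries came from C57BL/6 embryos at E11.5 of 3 genotypes, with 2 libraries each: tph2+/+ with both alleles intact, tph2+/- with 1 allele lost and tph2-/- with both lost. No other treatment is given for any group, and the labels do not say how the allele was made, whether the loss is restricted to a cell type, or whether a library holds 1 embryo or a pool. The labels mention littermates but do not assign libraries to litters. P-values therefore reflect how far libraries within each genotype differ, which may be technical. The whole region was sequenced, so fewer cells of a type and less RNA per cell cannot be told apart.

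Cytosolic ribosomes are built from ribosomal RNAs and a fixed set of proteins, most of which are present once in each particle. The large subunit forms peptide bonds and carries the stalk that recruits translation factors, and the small subunit reads the mRNA. Their genes are expressed in nearly every cell, and their mRNAs begin with a 5′ terminal oligopyrimidine (TOP) tract through which mTORC1 signalling, by way of Larp1, controls their translation. In blood formation they are known for Diamond-Blackfan anaemia, a failure of red cell production caused in most patients by loss of a single copy of a ribosomal protein gene.

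The set was nearly complete. A list of 80 proteins of the mammalian ribosome had a row for every entry, and 75 of them were members. The other 5 carry symbols of another form, among them Rpsa, Rps3a1, Fau and Gnb2l1, the older symbol of Rack1. The remaining member was Rps27l, a paralog of Rps27 known as a p53 target. All 76 members matched protein-coding genes of the GENCODE annotation of GRCm38, spread over 19 chromosomes, with 4 genes on X.

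Promoter sequences were searched for the feature these genes are known for, a run of C and T bases at or near the transcription start. RefSeq promoters (GRCm38.p6, positions -250 to 50 around the start) were matched for 56 of the 76 genes. The sequences below give 80 bases on the sense strand, from 50 before the first transcribed base through the 30 that begin with it. Capitals mark the longest uninterrupted run of C and T between 30 bases before the start and 40 after it, the first where runs tie. Rpl13a, Rpl38 and Rps6 are shown as classical TOP genes with the run at or beside the start. Rplp2, Rps27l and Rpl39 are shown because they are among the 4 genes whose relative levels varied most.
Rpl13a at chr7:45128716-45128795, minus strand: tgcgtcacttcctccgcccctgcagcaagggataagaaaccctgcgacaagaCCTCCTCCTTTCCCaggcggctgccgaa
Rpl38 at chr11:114668530-114668609, plus strand: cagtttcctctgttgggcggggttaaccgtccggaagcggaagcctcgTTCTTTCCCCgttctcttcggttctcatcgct
Rps6 at chr4:86857338-86857417, minus strand: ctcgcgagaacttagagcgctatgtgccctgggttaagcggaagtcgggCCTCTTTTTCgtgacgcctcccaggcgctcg
Rplp2 at chr7:141447601-141447680, plus strand: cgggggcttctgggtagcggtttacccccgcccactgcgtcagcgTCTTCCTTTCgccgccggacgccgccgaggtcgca
Rps27l at chr9:66946036-66946115, plus strand: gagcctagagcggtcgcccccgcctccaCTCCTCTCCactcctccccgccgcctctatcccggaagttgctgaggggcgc
Rpl39 at chrX:37085193-37085272, minus strand: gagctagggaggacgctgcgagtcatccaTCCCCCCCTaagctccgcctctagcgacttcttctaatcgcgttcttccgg

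The run began at position -2 in Rpl38, -1 in Rps6, -5 in Rplp2 and 3 in Rpl13a, counted with the first transcribed base as 1 and no position 0. The marked run lay upstream, from position -22 in Rps27l and -21 in Rpl39. In Rps27l a second run of the same length, 9 bases, lay closer to the start and was not marked. In Rpl39 a run of 8 bases lay after the start, so the position given depends on which run is marked. A run of at least 8 bases lay in the window in 41 of the 56 promoters (73.2%), compared with 28.1% of the 9382 tested genes with a promoter in the table. A run of at least 12 was present in 18 (32.1%), compared with 7.77%. The median longest run was 10 bases in ribosomal protein genes and 6 in tested genes.

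Short motifs were counted over the whole promoter on both strands, as a description of letters and not of bound factors. CTTCCG, the core bound by ETS factors such as GABP, was present in 39 of 56 promoters (69.6%), compared with 34.9% of tested genes. Its first 5 letters can lie within a pyrimidine run. GCCATNTT, the YY1 core, was present in 11 (19.6%) compared with 10%. The TATA box TATAAA (10.7% compared with 8.47%), the E-box CACGTG (10.7% compared with 12%) and the GC box GGGCGG (60.7% compared with 70.5%) were about as frequent as in tested genes or less so.

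Ribosomal protein genes were among the most abundant transcripts of the tissue. Their mean levels ran from 65.5 to 1710 RPKM with a median of 568. Of the 10 highest rows with a gene symbol, 2 were members, and members filled 47 of the highest 100 and 70 of the highest 200. Their share of the summed RPKM was 13.05% and 12.46% in libraries of tph2+/+, 13.43% and 13.13% in those of tph2+/-, and 13.46% and 13.08% in those of tph2-/-. All mutant libraries lay above both tph2+/+ libraries, the nearest by less than the gap between replicates.

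In the large subunit the highest was Rpl41, the shortest ribosomal protein, at 1664 and 1581 RPKM in tph2+/+ libraries, 1810 and 1692 in tph2+/- libraries and 1741 and 1770 in tph2-/- libraries. It was followed by the stalk protein gene Rplp1 (mean 1283 RPKM over the 6 libraries), by Rpl13a (1233), whose protein also takes part in translational control of inflammatory mRNAs, by Rpl13 (1104) and by Rpl8 (1078), whose protein lies near the peptidyl transferase centre. In the small subunit the highest was Rps2, a protein of the mRNA entry site, at 1599 and 1603, 1718 and 1715, and 1647 and 1737 RPKM in the same order. Rps15 (mean 1200 RPKM), Rps18 (1087), Rps14 (1077) and Rps26 (1070) came next. Rps14 is the gene known from loss of the long arm of chromosome 5 in human myelodysplastic syndrome, and Rps26 lies at the mRNA exit.

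Few genes lay far below the rest. The lowest member was Rps15a with a mean of 65.5 RPKM, followed by Rps27l (86.1), Rpl22 (90.8), Rpl21 (199), Rps27 (227) and Rpl37 (237). The middle 50% of members spanned 360 to 744 RPKM, a ratio of 2.07. Levels per length depend on the gene model, and Rps15a had the annotated exon length 6270 bases, summed over all its GENCODE transcripts, so its rank may not hold under another model. The sources used here do not give the authors' models.

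**Figure D1:**
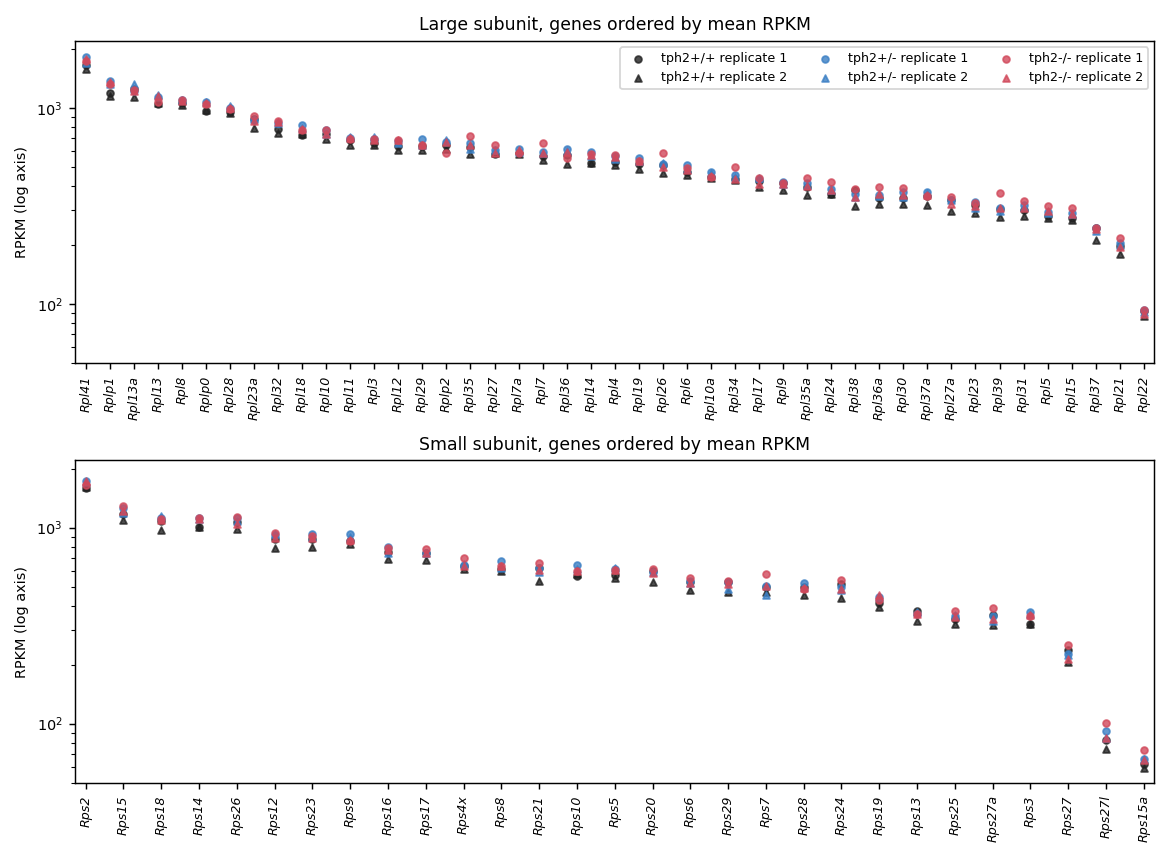
Level of the ribosomal protein genes reported, in RPKM (log axis), in the 6 libraries, for the large subunit (upper) and the small subunit (lower), ordered by mean. Colours mark the genotype and shapes the replicate. The libraries of a gene lie close together compared with the distance between genes, and the black triangles of tph2+/+ replicate 2 are most often lowest.

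The 3 rows under the minimum were tissue-restricted paralogs. Rpl3l, known from skeletal and heart muscle, had a mean of 0.0149 RPKM. Rpl10l, a testis paralog of Rpl10, had 0.0585 and Rpl39l, a testis-enriched paralog of Rpl39, had 0.121. By the estimated depth, Rpl10l was covered by 2 and 4 reads in tph2+/+, by 3 and 2 in tph2+/-, and by 4 and 0 in tph2-/-. All members lay far above the minimum, the closest being Rps15a.

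Levels varied little among libraries. The coefficient of variation over the 6 libraries ran from 2.31% in Rpl7a to 10.6% in Rps27l, with a median of 4.94%. Depth, estimated from the step between low RPKM values, was 38800000 to 46000000 reads per library. At that depth a gene model of 500 bases at 100 RPKM holds 1940 to 2300 reads, which gives a counting error of 2.09% to 2.27%.

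Several members had a near copy in the table that tracked them almost exactly, so their reads may be shared. The row Gm15772 stood at 1.04 times Rpl26 in every library, Gm12191 at 1.3 times Rpl30, Rpl34-ps1 at 1.42 to 1.43 times Rpl34, and Gm9846 at 1.64 to 1.65 times Rps27. The SD of the log2 ratio over libraries was at most 0.0025. A further 20 rows for cDNA clones tracked Rpl41, Rps18 or Rps27 in the same way, 18 of them for Rpl41. The levels of Rpl26, Rpl30, Rpl34, Rps27, Rpl41 and Rps18 are therefore uncertain, and so would be those of other members with processed pseudogenes whose rows did not track so closely.

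Tph2 itself lay at 0.0497 and 0.0764 RPKM in tph2+/+ libraries, 0.0472 and 0.028 in tph2+/- libraries and 0.0393 and 0.068 in tph2-/- libraries, too low to check the genotype labels. Markers of other tissues differed between genotypes. The summed level of 8 hepatoblast markers was 43.5 to 45.2 RPKM in tph2+/+, 313 to 491 in tph2+/- and 455 to 485 in tph2-/-. For 7 erythroid markers it was 103 to 106, 139 to 194 and 157 to 161 RPKM, and for 5 neural tube markers 17.2 to 18, 21.3 to 24.5 and 62.3 to 66.8. No marker was at 0 in any library. The 17 AGM markers of endothelium, mesonephros, gonad, sympathoadrenal cells and mesenchyme were present in all libraries, with sums of 330 and 352 RPKM in tph2+/+ libraries, 281 and 323 in tph2+/- libraries and 276 and 283 in tph2-/- libraries. Of 15 tested, 5 fell in tph2-/- and 4 in tph2+/- against tph2+/+, the gonadal and mesonephric genes Nr5a1 and Wt1 and the sympathoadrenal gene Dbh in both, and Kit rose in both. Over all 12869 tested genes 490 fell in tph2-/- and 251 in tph2+/-, and 751 and 531 rose. Xist and Ddx3y gave a female pattern in both tph2+/+ libraries and tph2+/- replicate 1, and a male pattern in tph2+/- replicate 2 and both tph2-/- libraries. No tph2-/- library therefore shared the sex pattern of a tph2+/+ library, and the comparison of these genotypes within a sex has no value.

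In tph2-/- embryos 1 ribosomal protein gene, Rplp1, rose against tph2+/+, and 75 of 76 had a positive fold change, most of it small. The median log2 fold change was 0.096 (fold 1.07) in ribosomal protein genes and 0.03 over all 12869 tested genes. The counts are those of limma on log2(RPKM + 1) with Benjamini-Hochberg adjustment over all tested genes, where an adjusted p under 0.05 counted as passed. In that comparison 9.64% of tested genes passed, 5.84% in the higher direction. A positive fold change was found in 57.8% of tested genes. Both tph2-/- libraries lay above both tph2+/+ libraries in 46 of 76 members (60.5%), against 35.7% of tested genes, and below them in none, against 24.2%. An unadjusted p under 0.05 was reached by 24 members, and by 26.8% of tested genes.

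Loss of 1 allele gave values of nearly the same size, measured against the same tph2+/+ libraries. In tph2+/- embryos 2 members rose, Rplp1 among them, and the median log2 fold change of members was 0.095 (fold 1.07), beside 0.024 over all tested genes. In that comparison 6.08% of tested genes passed, 4.13% in the higher direction. A positive fold change was found in 75 members, and in 58.6% of tested genes. Both tph2+/- libraries lay above both tph2+/+ libraries in 55 of 76 members (72.4%), against 32.3% of tested genes, and below them in none, against 19.8%. An unadjusted p under 0.05 was reached by 17 members, and by 20.2% of tested genes.

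Between tph2-/- and tph2+/- no ribosomal protein gene passed. The background was 1.29% of tested genes by limma with Benjamini-Hochberg adjustment (0.746% higher), and no member reached an unadjusted p under 0.05, against 13.1% of tested genes. No member passed without the trend and robust options either. The median log2 fold change was 0.002, with 39 of 76 above 0 and 49.5% of tested genes. Both tph2-/- libraries were higher in 5 members (21.4% of tested genes) and lower in 15 (21.7%). For a linear slope over 0, 1 and 2 lost alleles no member passed, against 2.26% of tested genes, and 17 had an unadjusted p under 0.05, against 22.4%.

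**Figure D2:**
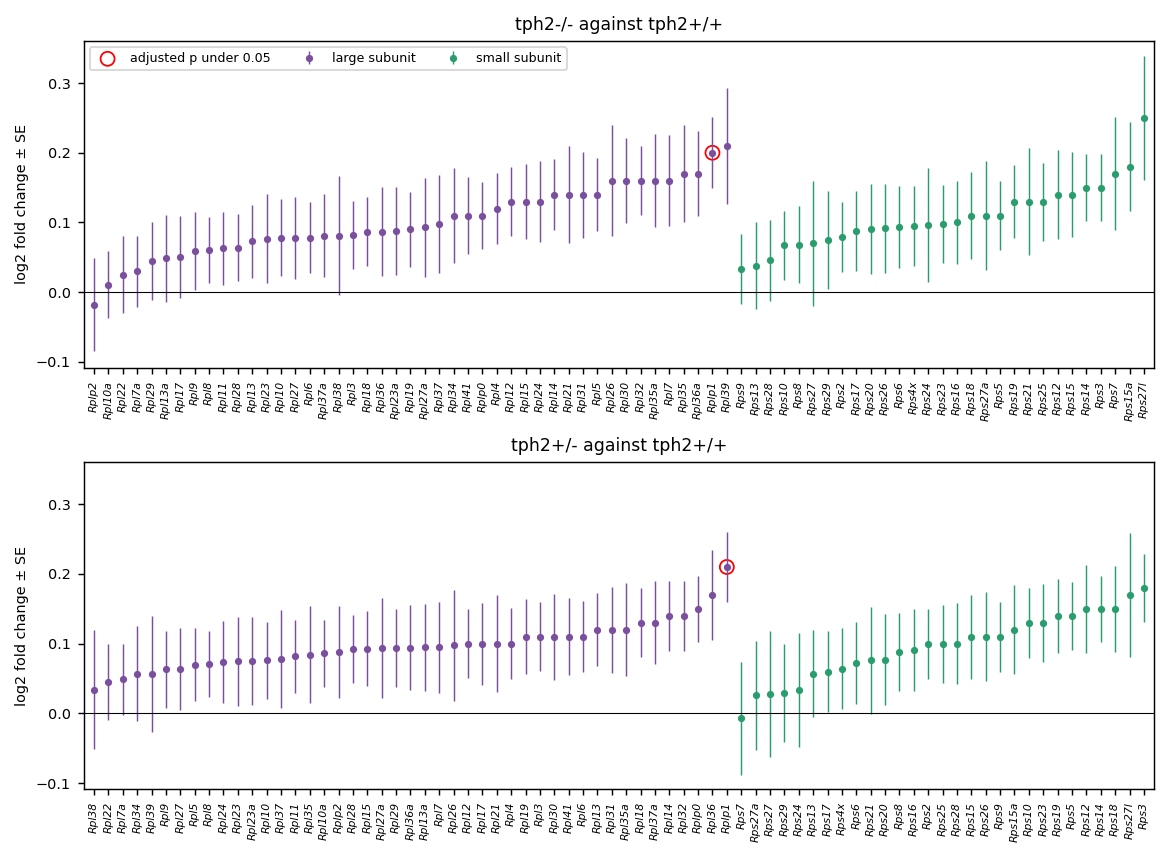
Log2 fold change (± SE, limma on log2(RPKM + 1)) of the ribosomal protein genes reported in tph2-/- (upper) and tph2+/- (lower) against the same tph2+/+ libraries, large subunit in purple and small subunit in green, ordered within each subunit. Rings mark Rplp1, which passed an adjusted p of 0.05 in both, and nearly all points lie between 0 and 0.25.

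Large and small subunits did not separate in median fold change or in summed level. In tph2-/- against tph2+/+ the median log2 fold change was 0.091 in 46 large subunit genes and 0.098 in 30 small subunit genes. In tph2+/- it was 0.095 and 0.10, and between tph2-/- and tph2+/- it was 0.00023 and 0.0078. The summed RPKM of the large subunit over that of the small subunit was 1.404 and 1.43 in tph2+/+ libraries, 1.417 and 1.431 in tph2+/- libraries and 1.41 and 1.428 in tph2-/- libraries. The libraries of a genotype differed as much as the genotypes did, and all 3 ranges overlapped. Members with an unadjusted limma p under 0.05 numbered 16 of 46 and 8 of 30 in tph2-/-, beside 26.8% of tested genes. In tph2+/- they numbered 8 of 46 and 9 of 30, beside 20.2%. Both tph2+/- libraries lay above both tph2+/+ libraries in 78.3% of large and 63.3% of small subunit genes, beside 32.3% of tested genes. For tph2-/- above tph2+/+ the shares were 60.9% and 60%, beside 35.7%. Differences between the subunits in these shares were not tested. The median of the mean levels was 539 RPKM in the large and 598 in the small subunit.

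A single tph2+/+ library carried much of the difference. The median deviation of members from their own mean over the 6 libraries, on the log2 scale, was -0.023 and -0.11 in tph2+/+ libraries, 0.046 and 0.016 in tph2+/- libraries and 0.058 and 0.0042 in tph2-/- libraries. Replicate 2 of tph2+/+ was the lowest library in 66 of 76 members, against 22.1% of tested genes, and replicate 1 in 7, against 19.2%. Replicate 1 of tph2-/- was the highest in 38 and replicate 1 of tph2+/- in 25. The share of tested genes highest in each library was not counted. Without tph2+/+ replicate 2 the median log2 fold change was 0.060 in tph2-/- and 0.057 in tph2+/-, and without replicate 1 it was 0.15 and 0.14. In all 4 cases the median stayed above 0. Over all tested genes it was 0.03 in tph2-/- and 0.025 in tph2+/- without replicate 2, and 0.027 and 0.023 without replicate 1. These fits leave 1 tph2+/+ library, so only the sizes are given.

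**Figure D3:**
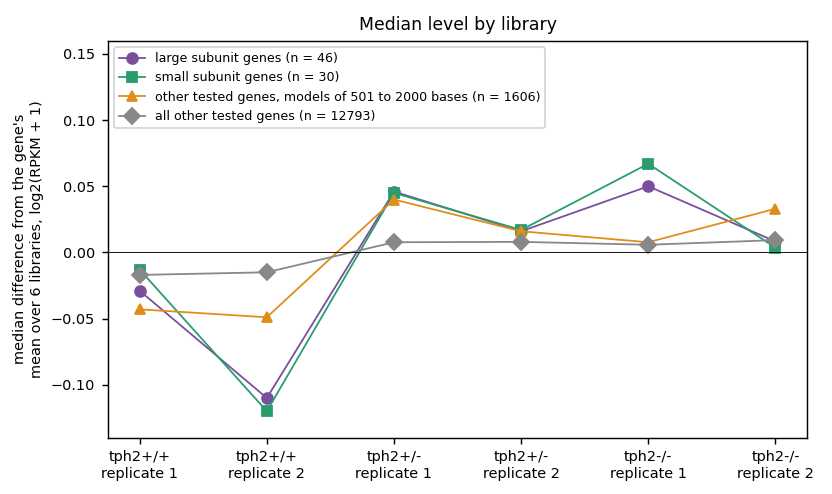
Median log2 difference from each gene's mean over the 6 libraries, by library, for large subunit genes, small subunit genes, other tested genes with models of over 500 and up to 2000 bases, and all other tested genes. Lines join the libraries only to guide the eye. Large and small subunit genes follow each other, and both are lowest in tph2+/+ replicate 2 (-0.11 and -0.12).

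Most other short genes had values in the same direction. Ribosomal protein transcripts are short, and 40 of the 76 had an annotated exon length over 500 and up to 2000 bases. The 1606 other tested genes of that length had a median log2 fold change of 0.063 in tph2-/- and 0.076 in tph2+/- against tph2+/+, beside 0.094 and 0.091 for the 40 members. Other genes over 500 and up to 1000 bases had 0.10 and 0.09, those up to 500 bases had 0.003 and 0.028, and those over 5000 bases had 0.019 and 0.0021. The 12 members over 3000 and up to 5000 bases had 0.13 and 0.11, beside 0.018 and 0.023 in other genes of that length. The annotated length covers the exons of all GENCODE transcripts of a gene and can exceed that of the transcript sequenced. Members in this bin may therefore be set against genes with longer transcripts. Removing a smooth trend on length within each library brought the members' medians to 0.0041 and -0.00086, with 40 and 38 of 76 above 0. Over all genes of that fit the medians were -0.014 and -0.018. The smooth trend follows means, which strongly changed genes can pull, so it can differ from the medians by length given above. Rplp1, with an annotated length of 499 bases, went from 0.20 to 0.063 in tph2-/- when the trend was removed. How much of the members' difference goes with length was not tested. Quantile normalization left 0.035 and 0.027 in members, with 55 and 56 above 0, beside -0.0069 and -0.013 over all genes. The 166 other genes of at least 200 RPKM had medians of 0.035 and 0.0067.

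**Figure D4:**
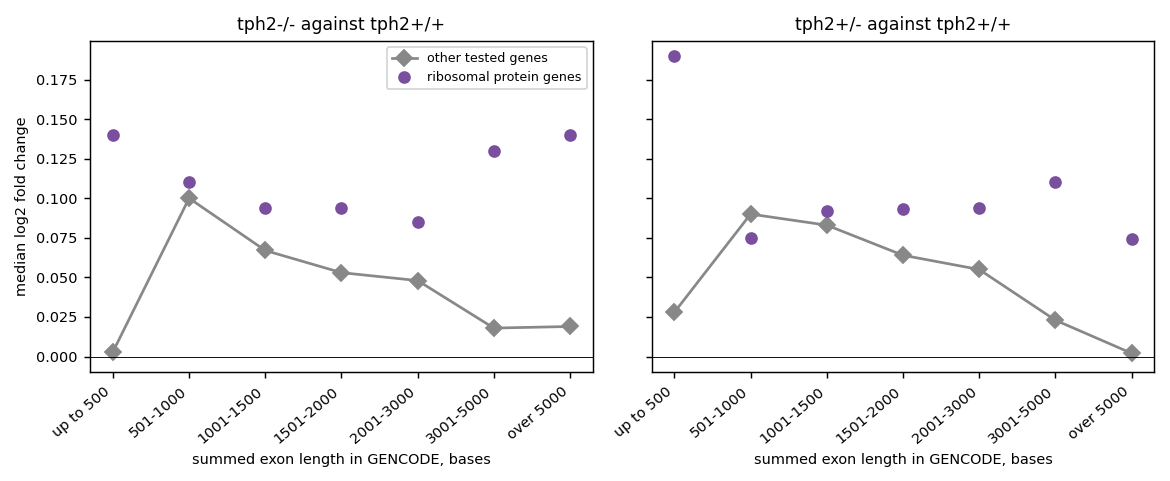
Median log2 fold change against tph2+/+ by annotated exon length in bases, for other tested genes (grey) and ribosomal protein genes (purple), in tph2-/- (left) and tph2+/- (right). Lengths cover the exons of all GENCODE transcripts of a gene. Among other genes the median is highest just above 500 and up to 1000 bases (0.10 and 0.09) and lower in longer genes, and members lie above it in all bins except that same bin in tph2+/-. The first and last bins hold 2 members each.

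Within a single sex pattern the comparison rests on few libraries and has no replicate check. In the female pattern tph2+/- replicate 1, a library in which many members were highest, minus the mean of tph2+/+ had a median of 0.11 on the log2 scale. It was above 0 in all 76 members, and in 7565 of 12869 tested genes, whose median was 0.027. Among libraries of the male pattern, which hold no tph2+/+ embryo, the mean of tph2-/- minus tph2+/- replicate 2 had a median of 0.017, above 0 in 48 members and in 6308 of 12869 tested genes. A further fit held the sex pattern as a term, which rests on the tph2+/- libraries. In that fit the members' median log2 fold change was 0.14 in tph2-/- and 0.11 in tph2+/- against tph2+/+. Over all tested genes it was 0.031 and 0.027. No member passed, beside 477 and 662 of 12869 tested genes. Hepatoblast, erythroid and neural tube markers were also lower in sum in tph2+/+ than in the other genotypes, and their part in the shift was not tested.

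The P stalk, where elongation factors dock, held the clearest single change and the clearest exception. Rplp1, on chromosome 9 at 61913284 to 61914542 of GRCm38, had 1184 and 1149 RPKM in tph2+/+ libraries, 1373 and 1320 in tph2+/- libraries and 1322 and 1352 in tph2-/- libraries. Both mutant genotypes lay above tph2+/+ with no overlap, and they overlapped each other. The means were 1166 ± 25.4, 1347 ± 37.9 and 1337 ± 21.5 RPKM (SD, n = 2). The log2 fold change was 0.20 ± 0.0506 (SE) in tph2-/-, with a limma adjusted p of 0.0439, and 0.21 ± 0.0506 in tph2+/-, with a limma adjusted p of 0.047. The call was lost in 11 of 16 alternatives in tph2-/- and in 14 of 16 in tph2+/-. With the length trend removed the values were 0.063 and 0.074, with limma adjusted p of 0.475 and 0.509. Rplp2, the partner of Rplp1 in the stalk dimer, had 650 and 620, 668 and 682, and 588 and 668 RPKM. It was the only member with a negative fold change in tph2-/- (-0.018 ± 0.0666), where its libraries lay on either side of those of tph2+/+. Rplp1 thus stood at 1.82 and 1.85 times Rplp2 in tph2+/+ libraries, 2.06 and 1.93 in tph2+/- libraries and 2.25 and 2.02 in tph2-/- libraries. Rplp0, the stalk base, had 965 and 976, 1076 and 1072, and 1043 and 1053 RPKM. Its groups did not overlap with tph2+/+, but its limma adjusted p was 0.176 in tph2-/- and 0.12 in tph2+/-. Rpl12, which binds beside it, had a log2 fold change of 0.13 and 0.10 with limma adjusted p of 0.13 and 0.308.

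Rps3, at the mRNA entry channel, had the highest fold change of the small subunit in tph2+/-. Its levels were 321 and 324, 369 and 364, and 354 and 360 RPKM, and its log2 fold change in tph2+/- was 0.18 ± 0.0484 with a limma adjusted p of 0.0603.

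Beside Rplp1, the highest fold changes of each subunit in tph2-/- were those of Rps27l, Rpl39 and Rps15a, none of which passed. Rps27l had 82.1 and 73.9 RPKM in tph2+/+ libraries, 91.3 and 84 in tph2+/- libraries and 101 and 84.8 in tph2-/- libraries. Its log2 fold change in tph2-/- was 0.25 ± 0.0893 (SE) with a limma adjusted p of 0.122. Its tph2-/- libraries lay above those of tph2+/+ and overlapped those of tph2+/-, replicate 1 being highest. Relative to Rps27, Rps27l stood at 0.344 and 0.36 in tph2+/+ libraries, 0.402 and 0.375 in tph2+/- libraries and 0.401 and 0.396 in tph2-/- libraries. Rpl39, a small protein of the exit tunnel encoded on X, had 306 and 277, 309 and 297, and 367 and 310 RPKM. Only tph2-/- replicate 1 stood well above the rest, and its log2 fold change of 0.21 ± 0.0831 had a limma adjusted p of 0.146. Rps15a, the lowest member, had 62.5 and 59.5, 65.9 and 66.3, and 73.3 and 65.3 RPKM, with 0.18 ± 0.064 and a limma adjusted p of 0.113.

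Low fold changes in tph2-/- were found in Rpl10a and Rps9. Rpl10a, found in the mouse on only some ribosomes, had 446 and 440 RPKM in tph2+/+ libraries, 473 and 468 in tph2+/- libraries and 446 and 448 in tph2-/- libraries. Its log2 fold change was 0.011 ± 0.0479 in tph2-/- and 0.086 ± 0.0479 in tph2+/-. In the small subunit Rps9 (0.033 ± 0.0503) was among the lowest in tph2-/-. Rps7, whose protein binds Mdm2, had 496 and 467, 506 and 453, and 581 and 502 RPKM. It was the only member below 0 in tph2+/- (-0.0071 ± 0.0806) and among the higher ones in tph2-/- (0.17 ± 0.0806). Its difference between tph2-/- and tph2+/- was 0.17 with a limma adjusted p of 0.398, the smallest of any member in that comparison.

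Relative to the other members, most genes kept their place. After subtraction of the library's median deviation over members, the SD of a gene over the 6 libraries had a median of 0.0405 on the log2 scale. It exceeded 0.09 in 4 genes: Rps7 (0.101), Rplp2 (0.0973), Rps27l (0.096) and Rpl39 (0.0941). In tph2-/- replicate 1 these stood at 0.16, -0.19, 0.17 and 0.18, whereas in tph2-/- replicate 2 they stood at 0.0042, 0.046, -0.02 and -0.0055. These values were thus not shared by the libraries of tph2-/-. Rps7 also stood at -0.15 in tph2+/- replicate 2, and Rps27l at -0.099 in tph2+/+ replicate 2. Across the 76 members tph2-/- replicate 1 had an SD of 0.0686, against 0.029 to 0.0439 in the other 5 libraries. In tph2-/- replicate 1 the relative level went down with abundance (Pearson's r = -0.429 with log2 mean RPKM across 76 genes of this library, which share its depth). In tph2-/- replicate 2 r was 0.352, and in the tph2+/+ and tph2+/- libraries it ran from -0.175 to 0.285. These levels are deviations from each gene's mean over the 6 libraries, so a negative r in a library pushes the others upward.

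**Figure D5:**
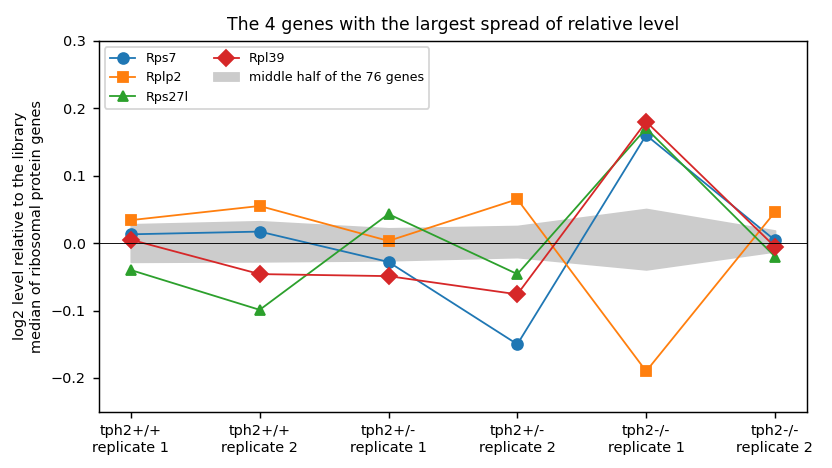
Log2 level relative to the library's median deviation of ribosomal protein genes, by library, for the 4 genes with the largest spread. The grey band covers the middle 50% of the 76 genes. Rps7, Rps27l and Rpl39 lie at 0.16 to 0.18 and Rplp2 at -0.19 in tph2-/- replicate 1, and all 4 lie within 0.05 of 0 in tph2-/- replicate 2.

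Genes with known roles beyond the ribosome did not pass. Rpl5 and Rpl11, which with the 5S rRNA form the particle that binds Mdm2 and restrains p53 breakdown, had log2 fold changes of 0.14 ± 0.0526 and 0.063 ± 0.0522 in tph2-/-. Their limma adjusted p were 0.134 and 0.463. Rps19, the gene most often mutated in Diamond-Blackfan anaemia, had 410 and 391 RPKM in tph2+/+ libraries, 443 and 442 in tph2+/- libraries and 429 and 451 in tph2-/- libraries. Its log2 fold change was 0.13 ± 0.0529 in tph2-/- and 0.14 ± 0.0529 in tph2+/-, with limma adjusted p of 0.145 and 0.169, and neither mutant genotype overlapped tph2+/+. Of 21 genes of that disease, Gata1, the erythroid transcription factor, rose in both mutant genotypes (log2 fold change 1.15 and 1.21), and the 19 ribosomal protein genes and Tsr2 did not pass. Rps6, the substrate of S6 kinase, had 526 and 482, 535 and 523, and 551 and 524 RPKM, with 0.094 ± 0.0587 in tph2-/-. Rpl38, whose loss in the mouse alters translation of Hox mRNAs, had 382 and 317, 362 and 351, and 384 and 353 RPKM, with 0.081 ± 0.0852. The tph2+/+ libraries of Rpl38 spanned those of tph2+/-.

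None of the 4 X-linked members passed, and their median log2 fold change was 0.13 in tph2-/- and 0.07 in tph2+/-. The tph2-/- libraries had a male pattern and the tph2+/+ libraries a female pattern, so sex and genotype cannot be told apart here. The tph2+/- libraries held 1 of each pattern. The values in tph2-/- were 0.078 for Rpl10, 0.17 for Rpl36a, 0.21 for Rpl39 and 0.095 for Rps4x, which escapes X inactivation in humans but not in mice. In the 8 proteins around the polypeptide exit (Rpl4, Rpl17, Rpl19, Rpl23a, Rpl26, Rpl31, Rpl35 and Rpl39) none passed, with medians of 0.13 and 0.099. The ubiquitin fusion Rps27a had 0.11 ± 0.0782 in tph2-/-, and Fau, which encodes a fusion to a ubiquitin-like protein and lies outside the symbol rule, had 0.11.

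Ribosomal protein genes outside the symbol rule had values like those of the members. All 8 that were tested had a positive fold change in tph2-/- and in tph2+/- against tph2+/+, with medians of 0.13 and 0.10. Rpl36al, an autosomal paralog of Rpl36a, passed in both. It had 245 and 232 RPKM in tph2+/+ libraries, 292 and 272 in tph2+/- libraries and 304 and 291 in tph2-/- libraries, all mutant libraries lying above tph2+/+. Its log2 fold change was 0.32 ± 0.0583 in tph2-/- (limma adjusted p = 0.0113) and 0.24 ± 0.0583 in tph2+/- (0.0455). It stood at 0.702 and 0.718 times Rpl36a in tph2+/+ libraries, 0.81 and 0.762 in tph2+/- libraries and 0.77 and 0.803 in tph2-/- libraries. Rpl22l1, the paralog of Rpl22, had 75.6 and 70.2, 76.9 and 76.7, and 96.2 and 72.9 RPKM, and the high value was again that of tph2-/- replicate 1. Rpsa, the laminin receptor gene, had 0.11 ± 0.0484 in tph2-/-, and its libraries were above those of tph2+/+ in both mutant genotypes.

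Ribosome assembly and the other mRNAs under mTORC1 control were read from fixed lists. Of 58 biogenesis factors 5 rose in tph2-/- against tph2+/+ and none fell. They were Wdr12 (log2 fold change 0.32), which acts in maturation of the large subunit, Nhp2 (0.30), a protein of H/ACA particles, Imp3 (0.29) of the U3 particle and Mdn1 (0.29), an ATPase that remodels pre-ribosomes. The fifth, Nop10 (0.25), another H/ACA protein, lies outside the naming rule and was named after its value was seen. Imp3 also rose in tph2+/- (0.33), as the only factor. The share of all tested genes that rose was 5.84% in tph2-/- and 4.13% in tph2+/-. The median of the list was 0.096 and 0.07, beside 0.096 and 0.095 in the members. Of 24 subunits of RNA polymerases I and III none passed in tph2-/- and Polr2f, shared by all 3 nuclear polymerases, rose in tph2+/- (0.28 ± 0.0698, limma adjusted p = 0.0496). Of 20 translation factors with TOP mRNAs none passed in either comparison, and their medians were 0.047 and 0.01. In tph2-/- against tph2+/- none of these 3 lists held a gene that passed.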

How the data were processed

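RNA was sequenced from 6 libraries as paired reads of 150 bp with a kit that does not mark strand, so overlapping genes cannot be told apart. Per the submitters' processing notes, TopHat2 2.0.9, HTSeq 0.5.3p9 and GRCm38 were used. The gene models are not stated in those notes. RPKM values computed by the authors were deposited, 1 column per library. Rows for 33353 cDNA clones and 27 dates were left out of 56826. Because the values were RPKM and not counts, limma 3.58.1 (R 4.3.3, trend and robust options) was fitted to log2(RPKM + 1) of the 12869 genes averaging at least 1 RPKM, all 3 genotypes sharing the spread. Such fold changes understate those of low genes. Benjamini-Hochberg adjustment ran across every tested gene, and steps were tested on simulated data. Depth was estimated from RPKM steps and annotated lengths, and counting errors cover counting only. Members, lists and tests were chosen with earlier results of these data known. Genes named were those that passed, extremes of level or fold change in each subunit, fixed groups, and up to 4 listed genes per direction, and a few of these are not reported here. Alternatives covered pseudocount, filters, scaling, length, sex, replicate block and each library left out.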

Additional observations from a re-analysis of the deposited data

How the results depend on the processing

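The medians of members in tph2-/- and tph2+/- against tph2+/+ stayed above 0 under all alternatives except removal of the length trend in tph2+/-, and the cause was not tested. They were 0.035 and 0.027 after quantile normalization, beside -0.0069 and -0.013 over all genes of that fit. After removal of the length trend they were 0.0041 and -0.00086, beside -0.014 and -0.018. Leaving out each library gave members' medians of 0.06 to 0.15 and 0.057 to 0.14. The large minus small subunit median was 0.021 in tph2+/- after quantile normalization and 0.015 in tph2-/- after removal of the length trend. With libraries left out it ran from -0.014 to 0.026 in tph2-/- and from -0.014 to 0.012 in tph2+/-, and from -0.024 to 0.00043 between tph2-/- and tph2+/-. The counts of 1 and 2 passing members became 0 and 0 with no filter, quantile normalization, median scaling, clone rows kept, the length trend removed, a Y-linked term, or limma without its trend and robust options. In the same order 1078, 1215, 1286, 1227, 1358, 477 and 938 of all genes in the fit passed in tph2-/- against tph2+/+. In tph2+/- they numbered 646, 778, 773, 808, 826, 662 and 682. The main fit had 1241 and 782. With a minimum of 5 RPKM the tph2+/- count was 1, beside 439 of all genes in that fit. Without single libraries the counts were 0 to 1 and 0. Rplp1 had log2 fold changes of 0.17 to 0.22 in tph2-/- and 0.18 to 0.24 in tph2+/- when libraries were left out, 0.15 and 0.16 after quantile normalization, and 0.063 and 0.074 (adjusted p 0.475 and 0.509) after removal of the length trend. Same-numbered libraries shared little, with correlations of deviations of 0.033, 0.17 and 0.0727, so numbers were not taken as pairs. With a replicate block 8 members passed in tph2-/- (Rpl30, Rpl32, Rpl35, Rpl36a, Rpl39, Rplp1, Rps14 and Rps27l) and 3 in tph2+/- (Rplp1 and Rps3 among them), and 1649 and 908 of all tested genes in place of 1241 and 782. Median scaling left 70 and 72 of 76 members above 0.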

Other observations

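Mitochondrial ribosomal protein genes, whose products form the separate ribosome of that organelle, had fold changes of a size like that of the cytosolic ones. Of 76 tested, 3 rose in tph2-/- against tph2+/+ by limma with Benjamini-Hochberg adjustment and none fell, beside 5.84% of all tested genes that rose. Mrps28 had 14.1 and 12.8 RPKM in tph2+/+ libraries, 18.1 and 16.2 in tph2+/- libraries and 18.6 and 20.7 in tph2-/- libraries, a log2 fold change of 0.51 ± 0.0783 (SE). Mrpl36 (0.40) and Mrps26 (0.26) were the other two. The list's median was 0.10 in tph2-/- and 0.091 in tph2+/-, where Mrps28 was the only one to pass. Between tph2-/- and tph2+/- none passed and the median was 0.015.

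Host genes of small nucleolar RNAs, many of them TOP transcripts, included 2 of 12 that rose in tph2-/-: Snhg3 (0.59 ± 0.0956) and Snhg4 (0.44 ± 0.0963), beside the same 5.84% of tested genes. Snhg3 had 19.9 and 15.6 RPKM in tph2+/+ libraries, 22.7 and 23 in tph2+/- libraries and 27.2 and 26.7 in tph2-/- libraries. None passed in tph2+/-. Of 17 genes of mTORC1 and S6 kinase signalling none passed, and their medians were -0.00075 and 0.0031. Among 12 genes of MYC and of the p53 response, Cdkn1a, the cell cycle inhibitor p21, fell in both mutant genotypes (-0.36 and -0.28). Bbc3, which encodes the apoptosis factor Puma, and Mdm4, a p53 inhibitor, rose in tph2-/- (0.31 and 0.24). Over all 12869 tested genes 751 rose and 490 fell in tph2-/-, and 251 fell in tph2+/-. Myc had 16.8 and 16 RPKM in tph2+/+ libraries, 19.4 and 20.8 in tph2+/- libraries and 18.5 and 21.7 in tph2-/- libraries, and its limma adjusted p in tph2+/- was 0.0773. All of these comparisons share the same tph2+/+ libraries. The hepatoblast, erythroid and neural tube markers that differ between the same groups were not tested for their part.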
